A study of Homo sapiens with 24 samples.

Results

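The 49 genes described here are textbook androgen-induced genes other than the kallikreins, found by gene symbol among the 23207 gene rows of the tables. They range from the protease gene TMPRSS2 and the cochaperone gene FKBP5 to channels, metabolic enzymes and transcription regulators. A gene was to be left out if its mean level stayed under 1 TPM (a level scaled by transcript length and by the sum over all transcripts) in all 8 groups. None was left out. AKAP12 reached 1 TPM in a single group (1.06 ± 0.155 TPM, SD, n = 3, in shSIRT1 cells), PTGER4 in 2, MAK in 3 and HPGD in 4 of the 8 groups.

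RNA was sequenced from LNCaP cells, an established hormone-sensitive line of human prostate cancer. All cells carried a lentiviral short hairpin, either non-targeting (NTC) or against SIRT1, given at a multiplicity of infection of 10. They were selected with 1 µg/ml puromycin and maintained as stable clones with 0.5 µg/ml, so the controls share the vector and the antibiotic. There are 8 groups of 3 libraries. In 2 of them, NTC and shSIRT1 cells grew in medium with fetal bovine serum (FBS), which holds androgens. The other 6 used NTC cells and a SIRT1 knockdown named 10, called KD10 below. These cells had 48 h in FBS medium and 24 h in charcoal-stripped serum, which is low in steroids. They then had 24 h of vehicle, of 1 nM dihydrotestosterone (DHT), or of 1 nM DHT together with 10 µM enzalutamide. The labels do not say whether KD10 and shSIRT1 carry the same hairpin or are the same clone, how many clones each stands for, or whether the 3 libraries of a group came from separate cultures. The p-values therefore measure the spread between libraries, which may be technical, and a clone's own features cannot be told apart from the loss of SIRT1.

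Androgens such as testosterone and DHT are steroids that enter the cell and change the transcription of a set of genes, most of them served by enhancers far from their starts. Enzalutamide is an antiandrogen that competes with the hormone. In prostate cells the induced genes serve secretion, lipid and polyol metabolism and growth. FKBP5, SGK1 and TSC22D1 are also known as glucocorticoid receptor targets. SIRT1 is a NAD-dependent deacetylase that acts on histones and on transcription factors.

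Each library of the stripped-serum set held 25.2 to 35.1 M counts, and each of the FBS set 11.9 to 14.2 M. RSEM took 224 to 252 bases off transcript lengths in the first and 50 in the second, and no test crosses the sets. In the stripped-serum set, library 1 stood apart in the NTC groups and in KD10 cells with both agents, and libraries 1 and 2 differed most in the other KD10 groups. In FBS medium, libraries 1 and 2 lay much closer together than either lay to library 3: the chi-square for a gene averaged 1.54 (NTC) and 1.57 (shSIRT1) between the first pair and 8.88 to 9.44 against library 3. All 9 luminal markers were present in every group, with a summed level of 2930 to 3650 TPM. Sums were 0.09 to 2.97 TPM for 5 basal markers, 5.08 to 10.7 TPM for 6 fibroblast markers and 7.54 to 20.7 TPM for 6 leukocyte and endothelial markers. Of the fibroblast genes, COL1A1 and COL3A1 passed 1 TPM, while COL1A2 and DCN were at or near 0. CD68 and LYZ passed 1 TPM in every group, while PTPRC and CD3E were at or near 0. The glucocorticoid receptor gene NR3C1 lay between 0.12 and 0.67 TPM in stripped serum.

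The members' promoters were searched for the letters that steroid receptors bind. RefSeq promoter sequences (GRCh38.p14), cut to the 250 bases before the transcription start, were found for 40 of the 49 members, with 75 starts in all. The full element, AGAACA, any 3 bases and TGTTCT, which reads the same way on both strands, was in 0 of the 75 and in 1 of all 35116 promoters of that length. The site of 6 letters AGAACA, or TGTTCT on the other strand, lies inside the full element. It was in 5 of the 75 (6.7%) and in 12.4% of all promoters. These are the 5 promoters that held it, each printed 5′ to 3′ on the gene's own strand, with the site in capitals. They are shown because they part into genes that rose with DHT (PMEPA1, IQGAP2 and STK39) and genes that did not rise by the test in either cell kind (LIFR and TSC22D1).
PMEPA1 promoter, chr20:57710578-57710827, minus strand: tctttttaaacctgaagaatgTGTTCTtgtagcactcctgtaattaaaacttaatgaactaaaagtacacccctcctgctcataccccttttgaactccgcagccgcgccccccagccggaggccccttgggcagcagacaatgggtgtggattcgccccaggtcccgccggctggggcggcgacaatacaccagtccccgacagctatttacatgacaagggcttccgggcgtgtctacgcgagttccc
IQGAP2 promoter, chr5:76547159-76547408, plus strand: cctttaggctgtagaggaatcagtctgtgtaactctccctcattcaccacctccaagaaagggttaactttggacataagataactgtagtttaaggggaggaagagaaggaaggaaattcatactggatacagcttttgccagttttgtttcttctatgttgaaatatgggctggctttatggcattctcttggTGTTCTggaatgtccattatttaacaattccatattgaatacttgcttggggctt
STK39 promoter, chr2:168247596-168247845, minus strand: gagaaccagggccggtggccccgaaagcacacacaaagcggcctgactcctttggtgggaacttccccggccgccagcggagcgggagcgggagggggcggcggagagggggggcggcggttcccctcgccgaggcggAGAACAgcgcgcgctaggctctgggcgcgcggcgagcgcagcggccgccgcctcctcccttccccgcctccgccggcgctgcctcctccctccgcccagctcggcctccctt
LIFR promoter, chr5:38557468-38557717, minus strand: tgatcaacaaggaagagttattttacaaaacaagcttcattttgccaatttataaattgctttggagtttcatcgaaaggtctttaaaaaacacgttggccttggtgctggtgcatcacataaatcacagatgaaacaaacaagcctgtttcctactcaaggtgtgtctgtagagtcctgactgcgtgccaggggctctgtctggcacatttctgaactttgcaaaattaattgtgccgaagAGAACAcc
TSC22D1 promoter, chr13:44474342-44474591, minus strand: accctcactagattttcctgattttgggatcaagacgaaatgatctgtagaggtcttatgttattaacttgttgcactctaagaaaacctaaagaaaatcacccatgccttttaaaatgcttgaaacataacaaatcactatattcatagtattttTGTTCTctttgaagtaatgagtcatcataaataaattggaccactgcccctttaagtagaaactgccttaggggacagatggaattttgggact
The first base of the site lies 229 bases before the start in PMEPA1, 55 in IQGAP2, 112 in STK39, 8 in LIFR and 94 in TSC22D1. PMEPA1 had 4 starts, IQGAP2 and LIFR 3 each, TSC22D1 5 and STK39 1. Only the 1 start printed for each gene held the site. A match of 6 letters is a description of the sequence, and its absence says only that these letters are not in this window.

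Without added hormone, the members spanned a wide range of levels per transcript length. In NTC cells with vehicle, DBI, which encodes the acyl-CoA binding protein, was highest (825, 852 and 915 TPM). SORD, which makes fructose from sorbitol, followed with 411, 420 and 424 TPM, and reads shared with near-identical pseudogene copies of DBI and SORD were not examined. The secreted metalloprotease gene ADAMTS1 (212 to 244 TPM), TSC22D1 (163 to 186) and the amino acid transporter gene SLC38A2 (153 to 158) came next, and SLC38A2 and TSC22D1 did not overlap. At the other end, HPGD (0.36 to 0.6 TPM), PTGER4 (0.31 to 0.43), MAK (0.22 to 0.44) and AKAP12 (0.12 to 0.16) were under 1 TPM. Among these 4, the libraries of HPGD, PTGER4 and MAK overlapped, and AKAP12 lay below the other three.

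With DHT, 33 of the 49 members rose in NTC cells, 0 fell and 16 did not pass the test. This comparison asks what the hormone alone changes. A gene was called where edgeR's quasi-likelihood test gave a Benjamini-Hochberg adjusted p under 0.05 over 14558 genes. Of all genes tested, 17.4% were called higher and 29.9% were called in either direction. The members were chosen as androgen-induced genes, so their direction is no independent finding. Their median log2 fold change was 0.47, beside 0 for all genes. The count of 0 lower members compares with 2 at an unadjusted p under 0.05, 1 with DESeq2 (SLC38A2) and 0 with limma on log2(TPM + 1). Of all 14558 genes, 5810 stood at that unadjusted level in either direction. In these bulk samples, more RNA per cell and a larger share of cells with the gene cannot be told apart.

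**Figure D1:**
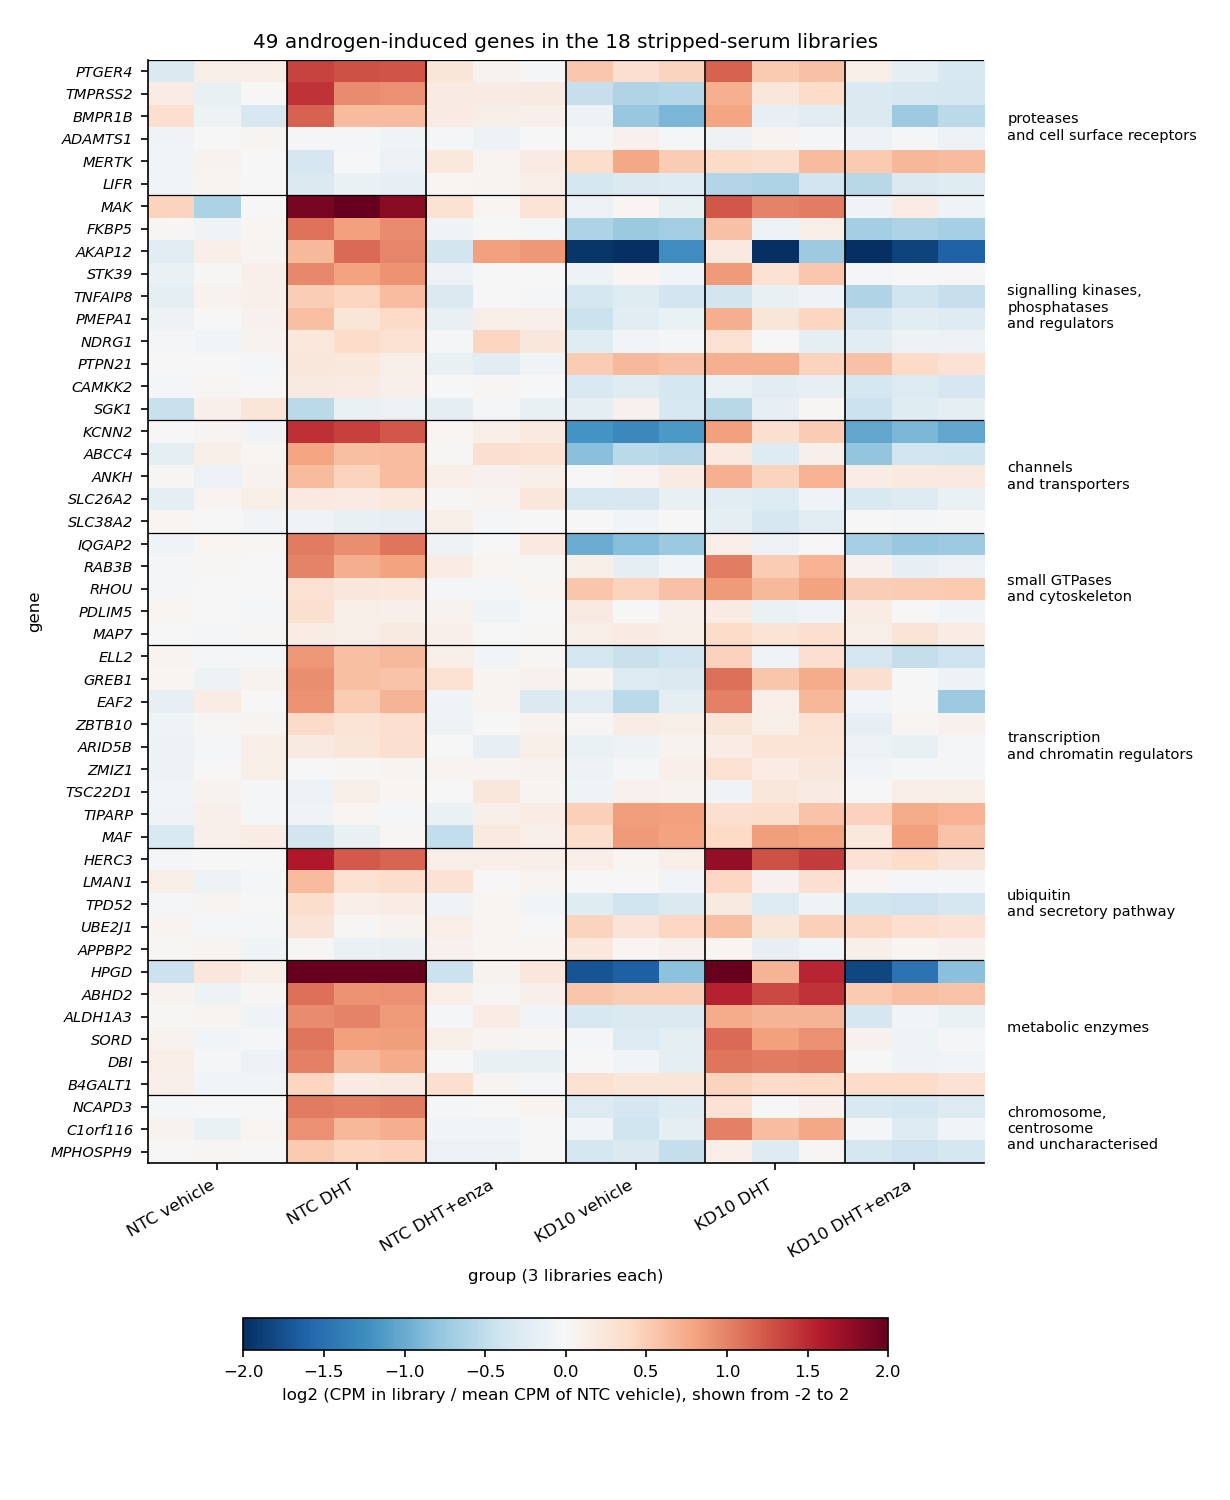
Each row is a gene, grouped by role, and each column a library of the 6 stripped-serum groups (3 libraries each). Colour gives log2 of the library's CPM over the mean CPM of NTC vehicle, shown from -2 to 2. Among the 33 genes that rose, the NTC columns with DHT are red where the rise was large and pale where it was small. The columns with DHT and enzalutamide resemble vehicle.

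Among proteases and cell surface receptors, 3 of 6 rose in NTC cells. TMPRSS2, a transmembrane serine protease gene, had 54.1, 44.1 and 48.7 CPM (counts scaled to library size, with TMM factors) with vehicle and 134, 94.8 and 92.6 CPM with DHT. The 2 groups did not overlap, and library 1 with DHT was the highest (log2 fold change 1.13, SE 0.12, adjusted p = 1.94e-06). PTGER4, the receptor EP4 for prostaglandin E2, went from 0.638, 0.848 and 0.855 CPM to 2, 1.89 and 1.87 CPM (1.29, SE 0.2, adjusted p = 0.000101), with 71 and 174 counts over the 3 libraries. BMPR1B, a type I receptor for bone morphogenetic proteins, rose by 0.84 (adjusted p = 0.0154), from 5.98 to 9.41 CPM up to 11.5 to 16.9 CPM.

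Of 10 signalling genes, 7 rose. MAK, a male germ cell-associated kinase, had the second largest rise of all members: 1.04, 0.495 and 0.763 CPM with vehicle and 2.85, 3.27 and 2.69 CPM with DHT (log2 fold change 1.93, SE 0.2, adjusted p = 1.16e-06). FKBP5, whose product works with HSP90 on steroid receptors, went from 53.7, 50.8 and 54.8 CPM to 113, 93.8 and 102 CPM (0.95, SE 0.12, adjusted p = 5.2e-06). Every DHT library lay above every vehicle library in both genes. STK39, a kinase gene that controls cation-chloride cotransport, rose by 0.89 and TNFAIP8, a regulator of cell death, by 0.52. The smaller rises were in PMEPA1, which dampens TGF-β signalling (0.41), in the stress-response gene NDRG1 (0.29, adjusted p = 0.0472) and in CAMKK2, a kinase upstream of AMPK (0.15, adjusted p = 0.015).

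Of 9 transcription and chromatin genes, 5 rose. The elongation factor gene ELL2 had 37.5, 35.1 and 35.2 CPM with vehicle and 65.6, 54.4 and 56.2 CPM with DHT (0.71, SE 0.1, adjusted p = 3.77e-05). GREB1, a steroid receptor cofactor, rose by 0.71 and EAF2, a partner of the ELL proteins, by 0.7. The zinc finger gene ZBTB10 rose by 0.33 and the DNA-binding gene ARID5B by 0.25. The ELL2 and EAF2 proteins are known to bind each other, and the genes rose by similar amounts from levels of 35.9 and 3.14 CPM.

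Of 5 channels and transporters, 3 rose. KCNN2, a calcium-activated potassium channel, had 31.6, 32.4 and 29.9 CPM with vehicle and 85.9, 80.4 and 74.4 CPM with DHT (1.36, SE 0.094, adjusted p = 1.44e-08). The groups lay far apart in KCNN2, with little spread inside each. ABCC4, an exporter of cyclic nucleotides, rose by 0.67 and ANKH, which exports ATP and citrate, by 0.56.

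All 6 metabolic enzymes rose, with a median of 0.92. HPGD, which inactivates prostaglandins, rose most of all 49 genes. It had 0.605, 0.954 and 0.885 CPM with vehicle and 7.95, 4.61 and 4.11 CPM with DHT (2.77, SE 0.34, adjusted p = 7.51e-06), on 74 and 510 counts over 3 libraries. ABHD2, a serine hydrolase, started high and went from 506, 451 and 489 CPM to 1030, 902 and 904 CPM (0.97, SE 0.066, adjusted p = 1.18e-08). ALDH1A3, which makes retinoic acid, had 47.6, 48.7 and 44.2 CPM and then 90.6, 93.4 and 84.2 CPM (0.93, SE 0.069, adjusted p = 2.46e-08). SORD went from 717, 659 and 672 CPM to 1430, 1200 and 1220 CPM (0.91, SE 0.085, adjusted p = 2.74e-07). None of these 4 enzymes had overlapping groups. DBI rose by 0.81 and the galactosyltransferase gene B4GALT1 by 0.26 (adjusted p = 0.0189).

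Of the remaining groups, 4 of 5 small GTPase and cytoskeleton genes rose, 2 of 5 ubiquitin and secretory genes and all 3 chromosome, centrosome and uncharacterised genes. IQGAP2, a scaffold protein gene, had 12.3, 13.2 and 13.1 CPM with vehicle and 26.4, 24.4 and 27.1 CPM with DHT (1.01, SE 0.086, adjusted p = 1.03e-07). RAB3B, which serves vesicle release, rose by 0.85, the small GTPase gene RHOU by 0.25 and the microtubule gene MAP7 by 0.15. HERC3, a ubiquitin ligase gene, went from 140, 143 and 142 CPM to 431, 330 and 319 CPM (1.35, SE 0.11, adjusted p = 4.98e-08), with library 1 again the highest. LMAN1, a cargo receptor between the endoplasmic reticulum and the Golgi, rose by 0.44. NCAPD3, a subunit of condensin II, went from 66.3, 68 and 68.1 CPM to 139, 135 and 138 CPM (1.03, SE 0.058, adjusted p = 1.6e-09), with libraries close together in both groups. C1orf116 rose by 0.78 and the centrosome gene MPHOSPH9 by 0.47.

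Leaving out 1 library ended 8 of these 33 calls. NDRG1 lost its call without any one of the 6 libraries (adjusted p = 0.0584 to 0.141). ARID5B lost it without DHT library 3 or vehicle libraries 1 or 2 (0.0789 to 0.0955). B4GALT1 and BMPR1B lost it without DHT library 1 or vehicle libraries 2 or 3 (0.0738 to 0.137 and 0.0594 to 0.101). CAMKK2 and EAF2 lost it without DHT or vehicle library 1 (0.056 to 0.0618 and 0.0555 to 0.0734), MAP7 without DHT library 3 or vehicle library 2 (0.0749 to 0.0809) and PMEPA1 without DHT library 1 (0.072). The other 25 calls held without any one library.

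The 16 members that did not pass in NTC cells had values of either sign. Log2 fold changes were -0.26 for the kinase gene SGK1, -0.19 for LIFR (a receptor subunit for leukemia inhibitory factor), -0.15 for the transcription factor gene MAF, -0.14 for the receptor kinase gene MERTK, and -0.13 for SLC38A2. They were -0.09 for APPBP2, a substrate receptor of a cullin ligase, -0.06 for ADAMTS1 and -0.02 for TIPARP, of the poly-ADP-ribose polymerase family. TSC22D1 stood at 0.01 and ZMIZ1, a PIAS-like coregulator, at 0.03. UBE2J1, a ubiquitin-conjugating enzyme of the endoplasmic reticulum, stood at 0.12. The sulfate transporter gene SLC26A2, the phosphatase gene PTPN21 and the LIM-domain gene PDLIM5 each stood at 0.19, the vesicle protein gene TPD52 at 0.21 and AKAP12, a scaffold for protein kinase A, at 0.92. AKAP12 had 64 and 121 counts over 3 libraries and a 95% interval from 0.08 to 1.77. For SGK1 the interval ran from -0.63 to 0.11, for TSC22D1 from -0.16 to 0.19 and for ADAMTS1 from -0.17 to 0.06. In the fit with the replicate number as a block, LIFR (adjusted p = 0.0103) and SLC38A2 (0.0122) were called lower, and PDLIM5 (0.00481), SLC26A2 (0.00448) and TPD52 (0.0341) higher.

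In KD10 cells, DHT raised 30 members and lowered 3, and 16 did not pass. Of all genes, 13.3% were called higher there, 8.92% lower and 22.2% either way. The members' median was 0.34, beside 0.01 for all genes. Genes called higher in both cell kinds numbered 28, which is 28 of the 33 in NTC cells and 28 of the 30 in KD10 cells, and 0 members were called in opposite directions. The 2 comparisons share no library. How many of all genes called higher were shared was not counted, and the members were chosen as androgen-induced genes. HPGD was again the largest, from 0.245, 0.263 and 0.462 CPM to 3.67, 1.3 and 2.34 CPM (2.9, SE 0.42, adjusted p = 7.14e-05), on 30 and 193 counts. KCNN2 went from 13.6, 12.8 and 14.1 CPM to 55.3, 39 and 44.5 CPM (1.78, SE 0.1, adjusted p = 2.96e-09).

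TMPRSS2 and FKBP5 rose in KD10 cells from a lower base. TMPRSS2 had 35.7, 32.3 and 33 CPM with vehicle and 79.9, 57 and 63.4 CPM with DHT (0.98, SE 0.13, adjusted p = 2.17e-05). FKBP5 had 34.8, 31.8 and 32.8 CPM and then 79.5, 48.8 and 58.3 CPM (0.91, SE 0.12, adjusted p = 2.32e-05). In both genes the DHT libraries were uneven, with library 1 high and library 2 low. HERC3 (1.38), MAK (1.16), DBI (1.13) and SORD (1.12) completed the 6 highest. The 3 members that fell were TIPARP (-0.31, adjusted p = 0.0476), LIFR (-0.23, adjusted p = 0.0484) and SLC38A2 (-0.23, adjusted p = 0.00302). SLC38A2 kept its call without any one library. TIPARP (adjusted p = 0.0994 to 0.149) and LIFR (0.0917 to 0.118) lost theirs without DHT libraries 1 or 2 or vehicle libraries 2 or 3, and TIPARP's groups overlapped. Beside these changes, 2 of 3 tested leukocyte and endothelial markers were higher with DHT in KD10 cells (CD68 0.39, VWF 0.5), and 1 of 3 fibroblast markers (COL3A1, 0.44), while CD3E and COL1A2 were at 0 in both groups. Their part in the members' values was not tested.

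Calls differed between the cells for 10 members. NDRG1, ZBTB10, PTGER4, TNFAIP8 and B4GALT1 passed in NTC cells, and TPD52, ZMIZ1, TIPARP, LIFR and SLC38A2 in KD10 cells. The test of the difference itself (DHT in KD10 cells minus DHT in NTC cells) passed for none of these 10. PTGER4 came nearest at -0.95 (adjusted p = 0.198). The call of ZMIZ1 in KD10 cells ended without DHT library 1 (adjusted p = 0.0583), and that of TPD52 without any of 5 libraries (DHT 1 and 3, vehicle 1, 2 and 3, 0.061 to 0.377). Calls of ARID5B (0.0536 to 0.0632), BMPR1B (0.149 to 0.373), CAMKK2 (0.142 to 0.287) and LMAN1 (0.0702 to 0.192) also ended there without 1 of 3 to 5 libraries, 8 of 33 in all.

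NCAPD3 was the 1 member of 49 whose DHT response differed between the cells by that test in the main fit, with 0.199% of all genes called. A lower response in KD10 cells was called for 0.158% of all genes and a higher one for 0.0412% (0 members). The fit with the replicate block also called DBI (0.33, adjusted p = 0.0279) and PDLIM5 (-0.29, adjusted p = 0.0276). Of 14558 genes, that fit called 190 higher and 237 lower. NCAPD3 had risen by 1.03 in NTC cells, and in KD10 cells it went from 55.8, 53.6 and 56.2 CPM to 82.5, 67.8 and 71.3 CPM (0.42, SE 0.058, adjusted p = 4.73e-05). The difference was -0.61 (SE 0.082, adjusted p = 0.00365). Neither the DHT libraries nor the vehicle libraries (66.3 to 68.1 against 53.6 to 56.2 CPM) overlapped between the cells. The call was lost with limma on log2(TPM + 1), which called 0 members either way. It held without any one library. For TMPRSS2 the difference was -0.14, with an interval from -0.51 to 0.23, and for FKBP5 -0.05, from -0.4 to 0.3. For 8 members the unadjusted p was under 0.05: 5 with a smaller response in KD10 cells and 3 with a larger one, KCNN2 (0.42), DBI (0.33) and ZMIZ1 (0.22). Of all genes, 1598 of 14558 stood at that unadjusted level.

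**Figure D2:**
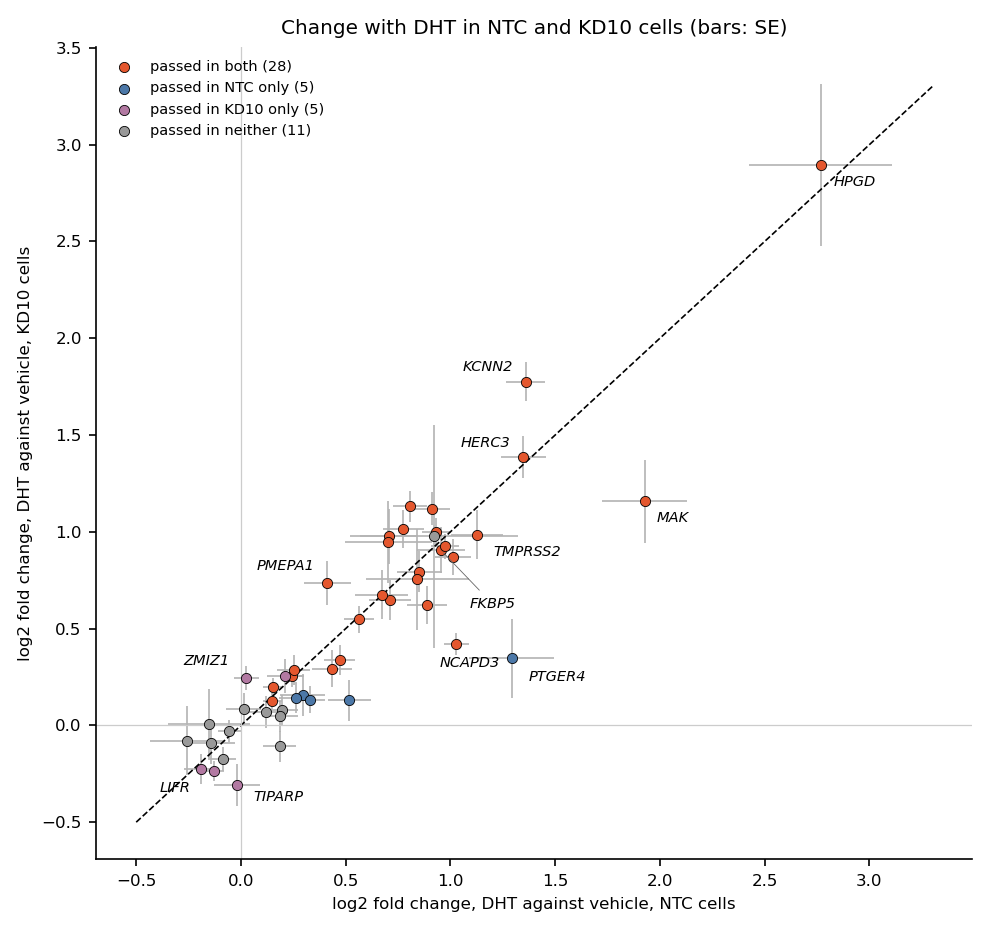
Each point is a gene, with its log2 fold change under DHT in NTC cells (x) and in KD10 cells (y). Bars are standard errors, the dashed line marks equal responses, and colour shows in which cells the gene passed the test. NCAPD3 (1.03 and 0.42) lies below the line and is the gene that passed the test of the difference in the main fit.

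Adding enzalutamide to DHT lowered 32 members in NTC cells and raised 2, and 15 did not pass, with 16.6% of all genes called lower, 12.6% higher and 29.2% in either direction and a members' median of -0.39. This comparison asks what the antiandrogen takes away from the hormone response, and it shares its DHT libraries with the comparison of DHT with vehicle, so the values are given side by side and no overlap is counted. HPGD had 0.602, 0.855 and 0.957 CPM with both agents (-2.79, adjusted p = 5.86e-06, after a rise of 2.77). TMPRSS2 had 55.1, 54.6 and 55.3 CPM (-0.96, adjusted p = 1.09e-05, after 1.13) and FKBP5 50.4, 53.5 and 52.1 CPM (-0.98, adjusted p = 3.23e-06, after 0.95). MAK (-1.72), KCNN2 (-1.24), HERC3 (-1.22), PTGER4 (-1.2) and NCAPD3 (-1.02) followed.

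The 2 that rose were LIFR (0.27, adjusted p = 0.0129) and SLC38A2 (0.17, adjusted p = 0.0182). LIFR lost its call without DHT library 1 or combined library 3 (0.0561 to 0.0714), and SLC38A2 without DHT libraries 2 or 3 or combined library 1 (0.0501 to 0.108). With the replicate block, 4 members were called higher, APPBP2 and MERTK among them, and 34 lower, MAP7 and PDLIM5 among them. A single left-out library also ended the calls of ABCC4, ARID5B, BMPR1B, CAMKK2, LMAN1, PMEPA1 and TPD52, 9 of 34 in all. Of 3 fibroblast markers tested, COL3A1 was lower as well (-0.43), and COL1A1 (0.15) and PDGFRB (0.17) did not pass. Of 3 leukocyte and endothelial markers tested, VWF was lower (-0.55), and CD68 (-0.07) and LYZ (0.1) did not pass. Their part in the members' values was not tested.

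In KD10 cells, enzalutamide lowered 31 members, raised 1 and left 17 that did not pass, with 12.2% of all genes called lower, 8.08% higher and 20.3% either way and a members' median of -0.35. Of the members lowered in NTC and in KD10 cells, 29 were shared (29 of 32 and 29 of 31), again without a shared library. The shared number among all genes was not counted here either. HPGD went to 0.23, 0.294 and 0.458 CPM (-2.85, adjusted p = 9.71e-05) and KCNN2 to 15.2, 16.7 and 15.3 CPM (-1.55, adjusted p = 1.84e-08). HERC3 (-1.19), DBI (-1.1), MAK (-1.08) and SORD (-0.97) were the next lowest. TMPRSS2 had 40, 39.2 and 38.9 CPM (-0.76, adjusted p = 0.000327) and FKBP5 33.3, 34.7 and 33.4 CPM (-0.88, adjusted p = 3.57e-05), each library below every DHT library. SLC38A2 was the gene that rose (0.25, adjusted p = 0.00235). With the replicate block, 4 were called higher, adding LIFR, TIPARP and APPBP2, and 34 lower, adding BMPR1B, PTPN21 and TNFAIP8. Leaving out 1 library ended 7 of the 32 calls: CAMKK2, EAF2, LMAN1, MAP7, PTGER4, TPD52 and ZBTB10. Of the same markers, COL3A1 (-0.41) and VWF (-0.78) were lower here too. COL1A1 (0.18), PDGFRB (0.01), CD68 (-0.23) and LYZ (-0.00) did not pass. In the main fit, the test of the difference between the cells passed for NCAPD3 alone (0.58, SE 0.082, adjusted p = 0.00527, with 0.268% of all genes called higher and 0.35% either way). No member was called lower in that test by the main edgeR fit (0.0824% of all genes), and DESeq2 called 1, ZMIZ1. The edgeR fit with the replicate block also called ZMIZ1 lower (-0.31, adjusted p = 0.0223). Of 14558 genes, it called 334 higher and 239 lower. At an unadjusted p under 0.05 stood 3 members lower and 5 higher, and 1728 of 14558 genes in either direction. The NCAPD3 call was lost with both limma fits and with only the groups compared.

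Compared directly with vehicle, cells with DHT and enzalutamide differed in none of the 49 members by edgeR, in NTC or in KD10 cells. This comparison does not use the DHT libraries. Of all genes, 0% were called in NTC cells and 0.00687% in KD10 cells. The latter is 1 gene, the kallikrein gene KLK4, which is no member (0.81, adjusted p = 0.0137). At an unadjusted p under 0.05 stood 0 members in NTC cells and 2 in KD10 cells, PTGER4 lower (-0.57) and KCNN2 higher (0.22), and DESeq2 and limma called 0 members in either. Of all 14558 genes, 453 stood at that unadjusted level in NTC cells and 477 in KD10 cells. TMPRSS2 stood at 0.17 in NTC cells, with an interval from -0.1 to 0.43, and at 0.22 in KD10 cells, from -0.05 to 0.49. FKBP5 stood at -0.03, from -0.27 to 0.21, and at 0.03, from -0.22 to 0.28. The intervals of the low-count genes were wide, from -0.87 to 0.83 for HPGD and from -0.33 to 1.4 for AKAP12 in NTC cells, so a remaining change of that size was not detectable.

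The share of the DHT rise left with enzalutamide gives the same values in another form, from group means, as a description. Over the 33 genes that rose in NTC cells its median was 5.4%, from -15.4 to 73.4%, and over the 30 in KD10 cells 4%, from -24.6 to 24.3%. It was 10.3% for TMPRSS2 and -2.24% for FKBP5 in NTC cells, and 17.1% and 2.28% in KD10 cells. NDRG1 (73.4%) and B4GALT1 (47.8%) had the largest shares in NTC cells, and neither passed the test of enzalutamide against DHT (-0.07 and -0.13). The rise of NDRG1 was small, from 89.2 to 109 CPM, which leaves that share imprecise.

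SIRT1 itself was checked first in each knockdown comparison. It had 56.1, 58.5 and 56.5 CPM in NTC and 17.6, 21.4 and 19.4 CPM in KD10 cells with vehicle, 2.93-fold lower (log2 fold change -1.55, SE 0.092, adjusted p = 2.01e-09). Under DHT it was 3.14-fold lower and under DHT with enzalutamide 2.95-fold lower. In FBS medium it had 40, 38 and 36.8 CPM in NTC and 8.43, 8.68 and 7.21 CPM in shSIRT1 cells, 4.71-fold lower. DHT itself moved SIRT1 in KD10 cells (-0.31, adjusted p = 0.0289), with overlapping groups, and not by the test in NTC cells (-0.21, adjusted p = 0.0761), where the fit with the replicate block called it lower (adjusted p = 0.00897).

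In KD10 cells some members were higher and others lower than in NTC cells. With vehicle 9 were higher and 16 lower, under DHT 10 and 20, and under DHT with enzalutamide 9 and 17. Of all genes, 15.5%, 19.5% and 15.4% were called higher and 19.1%, 23.5% and 19.2% lower. In either direction, 51%, 61.2% and 53.1% of the members were called, beside 34.6%, 43% and 34.6% of all genes. The members' medians were -0.08, -0.11 and -0.12. These comparisons share no library with each other. In all 3, the same 8 members were higher (RHOU, MAF, TIPARP, MERTK, ABHD2, MAP7, PTPN21 and UBE2J1). The same 16 were lower: TMPRSS2, FKBP5, KCNN2, ELL2, ABCC4, HPGD, TPD52, CAMKK2, NCAPD3, MPHOSPH9, LIFR, SLC26A2, AKAP12, IQGAP2, TNFAIP8 and ALDH1A3. None was called in opposite directions, 8 were called in only 1 or 2 of the treatments, and 17 passed in none of the 3, PMEPA1, HERC3, SORD, GREB1 and RAB3B among them. How many of all genes were called the same way in all 3 was not counted. The agreement is therefore not set apart from that of other genes.

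Among the lower genes, TMPRSS2 differed by -0.54, -0.68 and -0.48 with vehicle, DHT and both agents (adjusted p = 0.00311, 0.000238 and 0.00663). FKBP5 differed by -0.68, -0.73 and -0.62 (adjusted p = 0.000234, 6.18e-05 and 0.000561). For both genes the KD10 libraries lay below all NTC libraries in each treatment. KCNN2 showed one of the largest differences (-1.21, -0.8 and -1.12), with 13.6, 12.8 and 14.1 CPM in KD10 cells against 31.6, 32.4 and 29.9 CPM in NTC cells under vehicle. IQGAP2 differed by -0.86, -1.01 and -0.76, with 6.46, 7.1 and 7.68 CPM against 12.3, 13.2 and 13.1 CPM under vehicle. ABCC4 differed by -0.65, -0.64 and -0.73.

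The lowest fitted values were in genes with few counts. AKAP12 differed by -1.7, -1.65 and -2.46, on 20, 34 and 16 counts over 3 KD10 libraries and 64, 121 and 100 over 3 NTC libraries. HPGD differed by -1.33, -1.2 and -1.27, on 30, 193 and 29 counts against 74, 510 and 79. Under vehicle, AKAP12 lost its call without KD10 libraries 1 or 2 (adjusted p = 0.0565 to 0.0638), and HPGD without KD10 libraries 1 or 2 or NTC libraries 2 or 3 (0.0927 to 0.117). Under both agents HPGD also lost it without the same numbers (0.0978 to 0.139). MAK, called under DHT (-0.85), had -0.08 and -0.21 in the other treatments, and NCAPD3 had -0.29, -0.9 and -0.32.

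Among the higher genes, RHOU differed by 0.53, 0.53 and 0.52 (adjusted p = 1.28e-06, 5.64e-07 and 1.63e-06), with 87.1, 80.3 and 88.6 CPM in KD10 cells against 58.3, 59.6 and 59.8 CPM under vehicle. ABHD2 differed by 0.51, 0.47 and 0.49, with 708, 678 and 679 CPM against 506, 451 and 489 CPM. These are 2 genes that DHT also raised, and their groups did not overlap in any of the 3 treatments. MAF (0.69, 0.84 and 0.6), TIPARP (0.72, 0.44 and 0.6), MERTK (0.56, 0.61 and 0.47) and PTPN21 (0.58, 0.44 and 0.57) did not pass for DHT in NTC cells. The MAF call under both agents ended without KD10 library 2 or NTC library 1 (adjusted p = 0.0945 to 0.11). Leaving out 1 library ended 7 of 25 calls with vehicle (B4GALT1, MAP7, SLC26A2, TNFAIP8 and TPD52 beside the 2 named), 6 of 30 under DHT (BMPR1B, DBI, PTGER4, STK39, TPD52 and ZMIZ1) and 7 of 26 under both agents (ALDH1A3, B4GALT1, MAP7, NDRG1 and TNFAIP8 beside HPGD and MAF). In the paired fit, BMPR1B, C1orf116 and SORD were also called lower with vehicle, and BMPR1B and PMEPA1 under both agents. Markers of other cells moved too. Of 3 fibroblast markers tested, COL3A1 was higher in KD10 cells (0.53, 0.73 and 0.76), PDGFRB lower (-1.28, -1.06 and -1.22), and COL1A1 did not pass (-0.13, -0.13 and -0.1). Of 3 leukocyte and endothelial markers tested, VWF was lower (-0.85, -0.59 and -0.83), CD68 was higher under DHT alone (0, 0.31 and 0.14), and LYZ did not pass (0.22, 0.01 and -0.09), with COL1A2 and CD3E at 0 in the stripped-serum groups, and their part in the members' values was not tested.

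**Figure D3:**
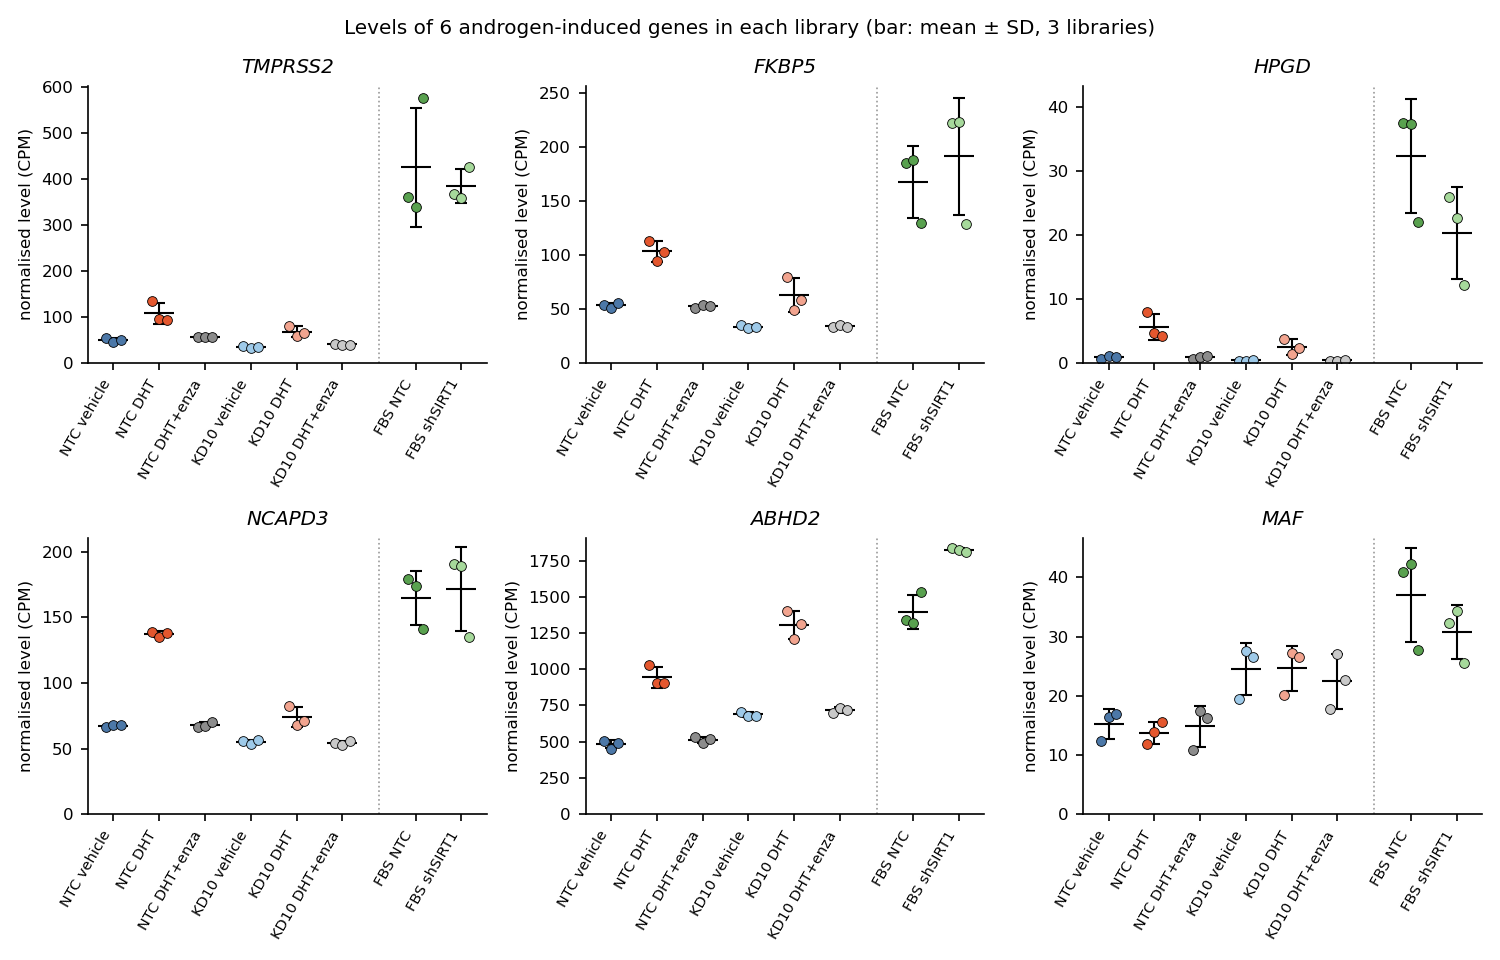
Points are libraries, and bars the mean ± SD of 3 libraries, in CPM, for 6 genes in the 6 stripped-serum groups and, right of the dotted line, the 2 FBS groups. TMPRSS2, FKBP5 and HPGD rise with DHT from a lower base in KD10 cells, NCAPD3 rises less there, ABHD2 is higher in KD10 cells throughout, and MAF is higher there without a response to DHT.

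In FBS medium, where both cell kinds had serum androgens throughout, 1 member was higher in shSIRT1 cells, 8 were lower and 40 did not pass, with 0.509% of 14329 genes called higher, 2.21% lower and 2.71% either way. ABHD2 was the higher one, with 1840, 1820 and 1810 CPM against 1340, 1320 and 1530 CPM (0.39, SE 0.073, adjusted p = 0.0275). NDRG1 was lowest, with 55.1, 58.1 and 48.4 CPM against 103, 103 and 79.7 CPM (-0.82, SE 0.11, adjusted p = 0.00551). PDLIM5 (-0.61), TNFAIP8 (-0.57), LIFR (-0.56), ARID5B (-0.53), IQGAP2 (-0.51), ADAMTS1 (-0.45) and BMPR1B (-0.45) followed, none with overlapping groups. In the paired fit 2 were called higher and 16 lower, with TSC22D1 added among the higher and ELL2, HERC3, HPGD, MAF, PMEPA1, PTPN21, STK39 and ZBTB10 among the lower, and 641 and 1035 of all genes were called. With libraries 1 and 2 of each group summed, 0 members were called in either direction, beside 3 higher and 41 lower of 14872 genes. With both libraries numbered 3 left out, 9 members were higher and 18 lower, beside 1570 and 1856 of 14390 genes, against 73 and 316 with all libraries.

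Leaving out 1 library ended 7 of these 9 calls, for each gene with any of 2 to 5 different libraries, while the folds stayed close to those with all libraries (ABHD2 0.35 to 0.38, ADAMTS1 -0.43 to -0.42, PDLIM5 -0.68 to -0.49). Without NTC library 1 or NTC library 2, 0 were higher and 2 lower, and without shSIRT1 library 1 or library 2, 0 were higher and 3 or 5 lower. Without NTC library 3, 2 members were higher and 13 lower, beside 303 and 623 of 14456 genes. Without shSIRT1 library 3, 1 was higher and 7 lower, beside 96 and 329 of 14494 genes. All-gene counts without 1 of the other 4 libraries were 13 to 16 higher and 89 to 102 lower. NDRG1 and LIFR kept their calls without any one library. TMPRSS2 had 367, 357 and 426 CPM against 359, 339 and 574 CPM, with NTC library 3 above all others (-0.15, interval from -0.55 to 0.25). FKBP5 had 222, 223 and 128 CPM against 185, 188 and 129 CPM (0.19, from -0.28 to 0.66), and its library 3 was low in both cell kinds. Each gene's groups overlapped.

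Set beside KD10 cells with vehicle, with which it shares no library, the FBS comparison had 4 calls in the same direction: ABHD2 higher, and LIFR, IQGAP2 and TNFAIP8 lower. These are 4 of 9 and 4 of 25 calls, and the overlap among all genes was not counted. ABHD2, IQGAP2 and TNFAIP8 lost the FBS call when 1 library was left out, and TNFAIP8 also the vehicle call. With FBS libraries 1 and 2 summed, none of these 4 was called. In the main fits 0 members were called in opposite directions. In the fits with the replicate block, 2 were: MAF was lower in FBS medium (-0.26, adjusted p = 0.0292) and higher with vehicle (0.68, 4.87e-07), and PTPN21 was lower in FBS medium (-0.56, 0.0374) and higher with vehicle (0.58, 6.84e-06). KCNN2 stood at -0.05 in FBS medium, with an interval from -0.21 to 0.1, and at -1.21 in stripped serum with vehicle. PTPN21 stood at -0.58 in FBS medium, where NTC library 3 (8.57 CPM) lay far below NTC libraries 1 and 2 (18.3 and 16.7 CPM), and at 0.58 with vehicle. Whether the 2 knockdowns differ in these genes was not tested, since medium, labelled knockdown and set differ together.

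**Figure D4:**
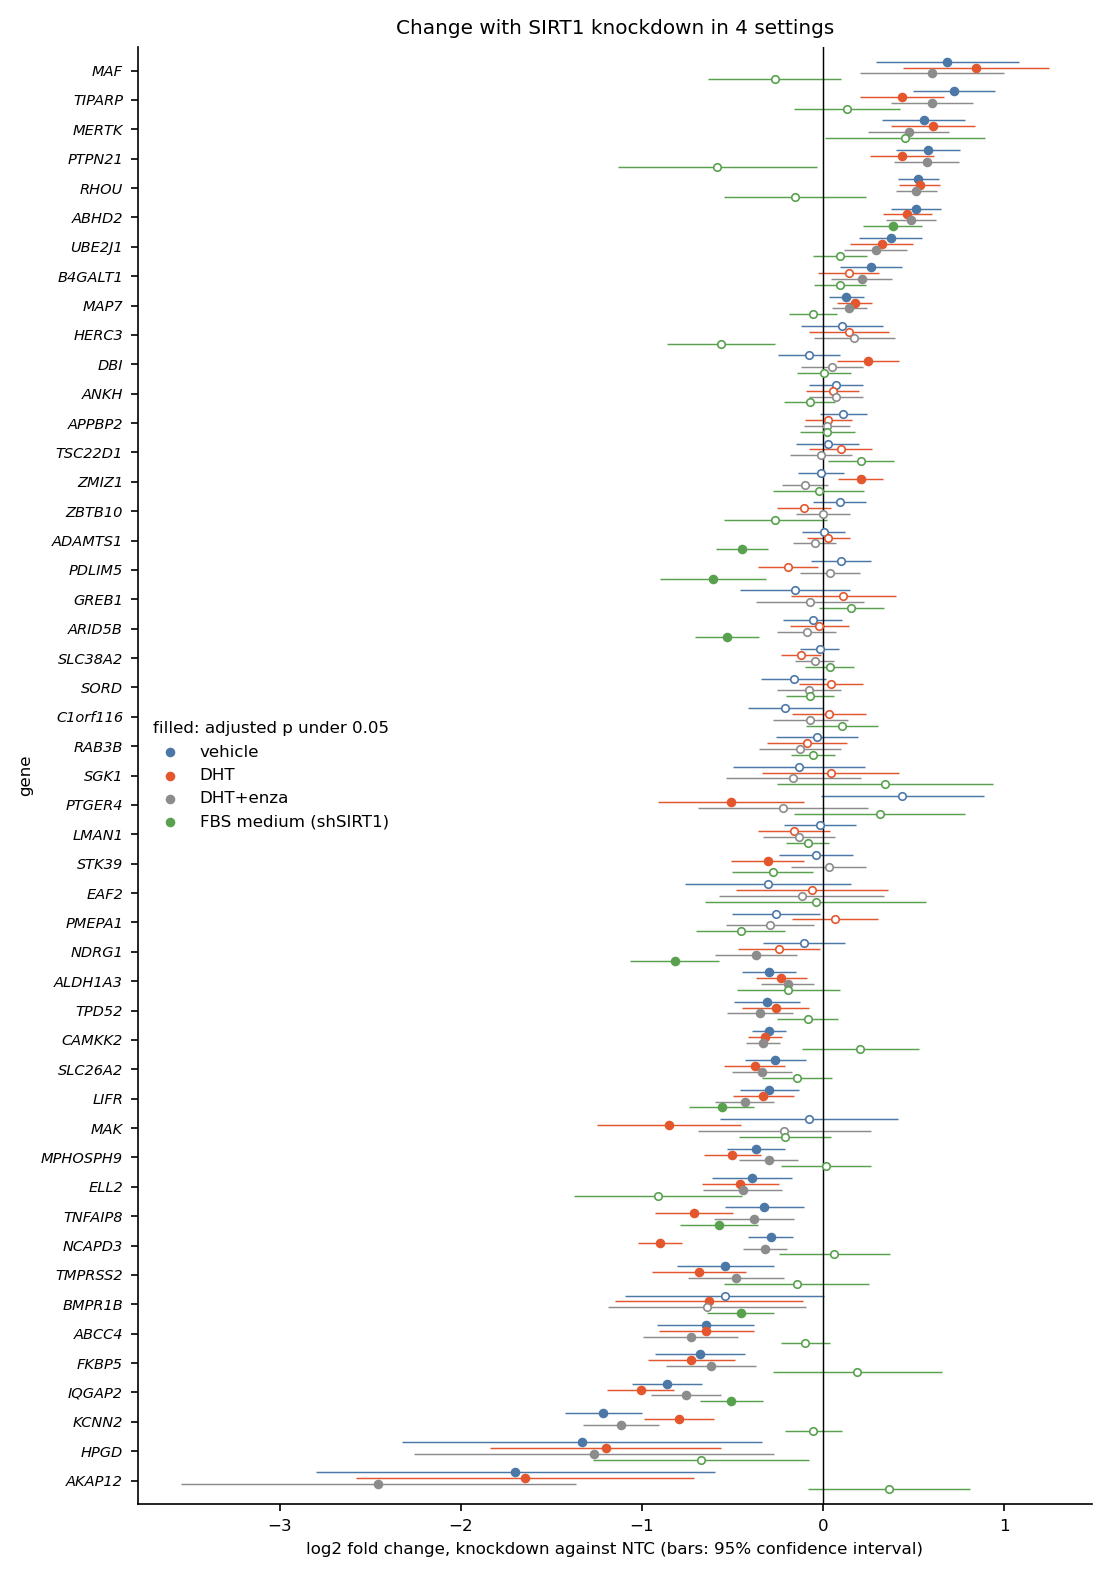
Each row is a gene and each point its log2 fold change in knockdown against NTC cells with vehicle, DHT, DHT and enzalutamide (KD10), or in FBS medium (shSIRT1), with 95% confidence intervals. Filled points passed the test. The 3 stripped-serum points of a gene mostly lie together, and KCNN2 in FBS medium lies near 0 (-0.05).

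Other androgen-induced genes were counted beside the members, from a list of 21 that holds the kallikreins. Of the 20 tested in stripped serum, 18 rose with DHT in NTC cells and 18 in KD10 cells, with medians of 1.4 and 1.47. Of all genes, 17.4% and 13.3% were called higher there. With enzalutamide 18 fell in each, beside 16.6% and 12.2% of all genes. STEAP2 rose with enzalutamide in NTC cells (0.38, adjusted p = 0.0233). KLK3, which encodes prostate-specific antigen, rose by 3.23 and 3.97. With both agents against vehicle, 0 of 20 were called in NTC cells and 1 in KD10 cells (KLK4, 0.81). The list's medians there were 0.07 and 0.09. KLK2, KLK3 and KLK4 stood at 0.74, 0.63 and 0.46 in NTC cells, without a call. In KD10 cells KLK2 (0.99) and KLK3 (1.10, adjusted p = 0.053) did not pass. In KD10 cells 9 were lower and 0 higher with vehicle, 7 and 1 under DHT, and 8 and 0 under both agents. Of all genes, 19.1%, 23.5% and 19.2% were called lower and 15.5%, 19.5% and 15.4% higher. In FBS medium 6 of 21 were lower and 0 higher, beside 2.21% and 0.509% of all genes. KLK4 was the 1 gene of this list whose DHT response differed between the cells (1.25, adjusted p = 0.00209), in the direction opposite to NCAPD3.

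NR3C2, the mineralocorticoid receptor gene, was higher in knockdown cells in all 4 comparisons (0.78, 0.89, 0.7 and 0.83), at 7.48 to 14.7 TPM against 3.85 to 8.25 TPM. Its part in the members' differences was not tested.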

How the data were processed

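Messenger RNA of 24 LNCaP libraries was sequenced from about 500 ng of total RNA each with a stranded kit, per the labels' protocols. The authors' processing used CASAVA 1.8.2 and RSEM 1.2.31 on hg19, per the submitters' processing notes; the aligner, and whether counting used strand, are not given in the sources used here. The deposited tables, per the file headers, hold for each gene symbol an RSEM expected count, TPM and FPKM, with lengths. FPKM was used in no result.

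Expected counts, which the authors estimated and which were rounded here to whole numbers, were tested with edgeR 4.0.16 (R 4.3.3): TMM scaling, filterByExpr by group, two-sided quasi-likelihood F tests, Benjamini-Hochberg adjustment over all genes of a comparison, a call at an adjusted p under 0.05. One fit held the 18 stripped-serum libraries (14558 genes), another the 6 FBS libraries (14329 genes), and all 49 members passed both filters. Common biological coefficients of variation were 7.79 and 7.83%. Deposited TPM served for levels and for limma 3.58.1 on log2(TPM + 1). The log2 fold changes are fitted values. Code was tested on simulated data.

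The members, roles, gene lists and naming rule were chosen with earlier results of these data known. Every member was counted in every comparison. Full values were given to the 12 largest changes under DHT in NTC cells among called members whose groups did not overlap. All 33 called members met that condition. Names were given to every member there without a call and to up to 6 highest and 6 lowest called members elsewhere. Every member called in an interaction was named, as were TMPRSS2 and FKBP5 throughout. Further members were named after their values were seen.

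Same-numbered libraries deviated together (correlation over 0.1 in every pair) in 7 of the 12 comparisons: DHT in NTC cells (0.105 to 0.341), enzalutamide in both cells, both agents against vehicle in KD10 cells, knockdown with vehicle and with both agents, and FBS medium (0.142 to 0.349). In those 7, and in the interactions, the blocked fit is given beside the calls of members that it changes. Unlike-numbered pairs reached 0.146 in FBS medium and 0.126 for enzalutamide in NTC cells (same-numbered 0.112 to 0.361). The cut at 0.1 therefore does not cleanly part paired from unpaired comparisons. The alternatives were DESeq2 1.42.0, its size factors, no filter, limma with pseudocounts of 1 and 0.1, only the groups compared, the block, each library left out, and FBS libraries 1 and 2 summed. Libraries numbered 1 (stripped serum) or 3 (FBS) were left out together as alternatives chosen after seeing the data.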

Additional observations from a re-analysis of the deposited data

Results flagged for a closer look

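The condensin II gene NCAPD3 is listed for DHT and for enzalutamide, because its response to each differed between NTC and KD10 cells by the test of the difference itself. The rise with DHT was smaller in KD10 cells by 0.61 on the log2 scale (log2 difference -0.61, adjusted p = 0.00365, edgeR). The fall with enzalutamide was smaller there as well (log2 difference 0.58, adjusted p = 0.00527). Both calls were lost with both limma fits, and the second also with only the groups compared. Both tests use the same DHT libraries, so they are not independent of each other. All 3 DHT libraries of NTC cells (135 to 139 CPM) lay above all 3 of KD10 cells (67.8 to 82.5 CPM). In FBS medium NCAPD3 had 174 and 179 CPM in NTC libraries 2 and 1 and 141 CPM in library 3, and 189, 191 and 135 CPM in shSIRT1 cells (0.06, adjusted p = 0.857).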

How the results depend on the processing

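Of 592 fold changes of the members and SIRT1, 461 kept their side of the threshold under every alternative run, and 131 did not. Values called in the main fit kept their direction throughout, and none of the others was called in the direction opposite to its main value. Where a value had no call in either fit, its sign was not compared. Most counts of called members stayed within 1.5 times, with these exceptions. Members lower with DHT in NTC cells numbered 0, and 1 with DESeq2 or only the groups compared and 2 with the replicate block. Members lower with DHT in KD10 cells numbered 3, and 1 with either limma fit, with no filter or with only the groups compared, and 1 to 3 with a library left out. Members higher with enzalutamide numbered 2 in NTC cells (0 with either limma fit, 4 with the block, 1 to 2 with a library left out) and 1 in KD10 cells (3 without the libraries numbered 1, 4 with the block, 1 to 2 with a library left out). Members lower in KD10 cells with vehicle numbered 16, and 10 with limma on log2(TPM + 1). In the DHT interaction 0 were higher and 1 lower, 1 and 2 with the block, and 0 lower with either limma fit. In the enzalutamide interaction 1 was higher and 0 lower. That higher call became 0 with either limma fit or only the groups compared and 1 to 2 with a library left out, and 1 was lower with DESeq2 or the block. In FBS medium 1 was higher and 8 lower. These became 9 and 18 without the libraries numbered 3, 0 and 0 with libraries 1 and 2 summed, 2 and 16 with the block, 3 lower with either limma fit, and 0 to 2 higher and 2 to 13 lower with a library left out. The causes were not tested, except that a sum or a left-out library leaves fewer samples. The replicate block ended no call of a member in any comparison. In the 5 comparisons where the numbers did not pair the libraries by the rule above it added APPBP2 and B4GALT1 (DHT in KD10 cells), B4GALT1, LMAN1, PDLIM5 and SLC38A2 (knockdown under DHT), DBI and PDLIM5 (DHT interaction) and ZMIZ1 (enzalutamide interaction). Depth limits HPGD, PTGER4, MAK and AKAP12, whose groups held as few as 16 counts.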
